A study of Homo sapiens with 12 samples.

Results

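The genes described here are those of the constitutive proteasome in MDA-MB-231, a human cell line from a triple-negative breast cancer with mesenchymal character. They are the protein-coding genes whose symbol is PSMA, PSMB, PSMC or PSMD followed by a number, without PSMB8, PSMB9 and PSMB10, the subunits of the immunoproteasome. The rule found 36 genes among the 60649 gene IDs of the deposited table, and 34 of them passed the filter on low counts. PSMA8, a testis-specific alpha subunit, and PSMB11, a thymus-specific beta subunit, did not pass: PSMA8 was listed above 0 in 1 double KD library and 1 control library, and PSMB11 in 1 IGF2BP2 KD library, each time at 1 read. The 36 genes fall into 8 of the 20S alpha ring, 8 of the 20S beta ring, 6 of the ATPase base, 3 of the non-ATPase base, 8 of the lid and 3 assembly chaperones of the base.

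RNA was sequenced from 4 groups of 3 libraries. They were cells carrying short hairpin RNAs (shRNAs) against both SIRT1 and IGF2BP2 (double KD), against SIRT1 (SIRT1 KD), against IGF2BP2 (IGF2BP2 KD), or a sham-targeting shRNA (control). IGF2BP2 binds RNA and stabilises its targets, and SIRT1 removes acetyl groups from proteins at the expense of NAD. All 4 groups had been infected with lentivirus made in HEK-293T packaging cells in the presence of Polybrene at 8 µg/mL, and were kept under puromycin at 2.0 µg/mL in RPMI-1640 with 10% serum. Not given in the sources used here were the hairpin sequences, the number of hairpins for each gene and whether clones or pools were used. The design text speaks of 3 independent analyses of each condition. Whether these began from separate infections is not stated; p-values here measure only how far these libraries spread, which may be technical.

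The proteasome is the protease that degrades ubiquitin-tagged proteins in the cytosol and nucleus. Its 20S core is a barrel of stacked rings: the outer alpha rings form the gate, and the inner beta rings hold the active sites. The 19S regulatory particle caps the core. Its base carries a ring of ATPases that unfold the substrate together with subunits that bind ubiquitin, and its lid removes the ubiquitin chain before the substrate enters. Transcription of human proteasome genes is known to rise together when the proteasome is inhibited, through NFE2L1, a membrane-anchored factor that is released by NGLY1 and DDI2 and binds antioxidant response elements in their promoters. Triple-negative breast cancer cells are known to be sensitive to proteasome inhibition.

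The targeted genes were checked first. Normalised counts are reads per gene divided by the size factor of the library. SIRT1 had 396, 380 and 436 normalised counts in double KD, 547, 496 and 539 in SIRT1 KD, and 799, 841 and 863 in control libraries. IGF2BP2 had 992, 715 and 884 in double KD, 709, 841 and 736 in IGF2BP2 KD, and 3045, 3055 and 3127 in control libraries. For SIRT1, every double KD library lay below every SIRT1 KD library. Double KD against SIRT1 KD and the interaction therefore also span a deeper SIRT1 knockdown, whose part in the results was not tested. Depth was 15243152 reads in genes in double KD replicate 2 and between 19522606 and 22509142 in the others. That library stood apart from its partners: its share of mitochondrially encoded reads was 1.18%, against 1.99% to 2.57% in the other 11 libraries, and the SD of its log2 differences to its partners was 0.347, against 0.120 to 0.235. Results that rest on it are given with and without it. All 5 markers of the line (VIM, CD44, EGFR, AXL, CAV1) were abundant, with a summed level of 102308 to 127322 normalised counts over the 12 libraries, while the 3 markers that the line lacks or has at a low level (ESR1, PGR, CDH1) summed to at most 27.1. The 4 immune markers summed to at most 9.58 and the 2 HEK-293T markers to at most 1.92. The 3 fibroblast markers summed to 554 to 1006 in double KD, 313 to 360 in SIRT1 KD, 275 to 295 in IGF2BP2 KD and 240 to 248.8 in control libraries, nearly all of it COL1A1, with DCN at 0 in all 9 knockdown libraries. The 3 luminal markers (EPCAM, KRT8, GATA3) summed to 10222 to 14106 in double KD, 13409 to 14434 in SIRT1 KD, 11220 to 11757 in IGF2BP2 KD and 12385 to 12745 in control libraries, nearly all of it KRT8. The part of these markers in the results below was not tested. Counts are relative to the RNA in each library, so fewer cells and less RNA per cell cannot be told apart.

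Sequence is shown first for called genes, picked to show promoters with and without the core of the antioxidant response element. PSMD12, a lid subunit, and PSMD5, an assembly chaperone, were both called higher in double KD against SIRT1 KD, and both hold the core of the antioxidant response element upstream of their start. PSMD2, the base subunit with the largest difference between double KD and control cells among the 34 genes, holds none in its window. Each line gives the 250 bases before the transcription start from RefSeq on GRCh38.p14, 5′ to 3′ on the strand of the gene, with the element in capitals. The windows are chr17:67366578-67366827 on the minus strand for PSMD12, chr9:120842923-120843172 on the minus strand for PSMD5, and chr3:184298991-184299240 on the plus strand for PSMD2, for which the first of 2 listed starts is shown.
PSMD12: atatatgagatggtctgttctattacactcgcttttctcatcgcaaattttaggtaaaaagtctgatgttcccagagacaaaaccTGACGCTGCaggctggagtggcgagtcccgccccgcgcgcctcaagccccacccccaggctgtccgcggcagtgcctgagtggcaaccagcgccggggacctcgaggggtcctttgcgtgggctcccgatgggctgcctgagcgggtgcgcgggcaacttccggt
PSMD5: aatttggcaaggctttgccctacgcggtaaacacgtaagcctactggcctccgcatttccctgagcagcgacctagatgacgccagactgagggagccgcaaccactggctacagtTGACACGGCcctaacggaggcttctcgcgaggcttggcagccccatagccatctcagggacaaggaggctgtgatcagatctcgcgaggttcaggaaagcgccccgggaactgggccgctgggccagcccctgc
PSMD2: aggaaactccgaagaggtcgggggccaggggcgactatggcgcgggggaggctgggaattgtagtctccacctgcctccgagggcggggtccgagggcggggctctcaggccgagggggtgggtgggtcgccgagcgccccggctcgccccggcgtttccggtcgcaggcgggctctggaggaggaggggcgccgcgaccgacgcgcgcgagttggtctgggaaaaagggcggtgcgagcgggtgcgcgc
The element was searched as TGACNNNGC on both strands, which may overlap other motifs. It begins 165 bases before the start of PSMD12 and 134 bases before that of PSMD5. Of the 31 proteasome genes with a promoter in the RefSeq table, 7 (22.6%) held it: PSMA4, PSMB3, PSMC5, PSMD3, PSMD5, PSMD9 and PSMD12. It was held by 15.7% of 11737 tested genes with a promoter and by 10.9% of all 35116 promoters of the same length. Of the 9 genes called higher in double KD against SIRT1 KD that have a promoter there, 3 held it, and 1 of the 6 called lower in SIRT1 KD than in control cells did. A match is a description of the letters and not a site.

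The 3′ UTRs were searched on the transcript strand for CTCAGAT and TCAGATA, 7-mers that an earlier look at these data picked from the SIRT1 KD against control comparison, so they lend no independent support here. They were held by 4 of 34 proteasome genes (11.8%), all outside the genes that fell in SIRT1 KD cells, and by 17.1% of 13120 tested genes. Sites of 3 of the 4 genes are shown with their flanking bases, 5′ to 3′, and the 7-mer in capitals, from GENCODE 29 on GRCh38. They lie in the last exon of each transcript, at chr7:42917528-42917555 on the minus strand for PSMA2, chr15:78550771-78550798 on the plus strand for PSMA4 and chr12:121916683-121916710 on the plus strand for PSMD9.
PSMA2: atccagaattTCAGATAatctatctact
PSMA4: cttgctcaacCTCAGATgggaacatgtg
PSMD9: caaaccaaagCTCAGATggggtcagaag
The median log2 difference between SIRT1 KD and control cells was -0.03 over the 4 genes with a 7-mer and -0.12 over the other 30. The median 3′ UTR of the proteasome genes was 309.5 bases long, against 991 over all tested genes. In none of these 4 genes did SIRT1 KD differ from control at an adjusted p under 0.05.

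Levels can be compared between genes only per length of transcript. In control cells the 28 proteasome genes with at most 40% of their transcript shared with another gene had a median of 1291 normalised counts per kb, between 432 for PSMA4 and 5383 for PSMA7, a 12.5-fold range. The beta ring had the highest median of the sub-complexes, 3037 per kb over 7 genes, between 754 for PSMB2 and 4614 for PSMB1. Over genes at or under the same 40% limit, the median was 1377 per kb in the alpha ring (4 genes), 1539 in the non-ATPase base (3 genes), 1186 in the lid (7 genes), 874 in the ATPase base (5 genes) and 544 for the assembly chaperones (2 genes). Within the base, PSMD2 stood at 3118 per kb and PSMD1 at 763 per kb. The measure depends on the transcript chosen, which was the one with the longest coding sequence and then the longest 3′ UTR.

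The 6 other genes share over 40% of their transcript with another annotated gene and had a lower median of 211 per kb, between 29.9 for PSMA2 and 523 for PSMA1. PSMA1, PSMA2 and PSMA6 each overlap another annotated gene on the same strand (AC018523.2, AC010132.3 and AL121594.1) over 59.5%, 54.1% and 80.3% of the transcript, PSMA2 with a short stretch opposite MRPL32, PSMD9 overlaps WDR66 and AC069503.2 (43.8%), PSMC1 overlaps NRDE2 on the opposite strand (82.1%) and PSMD7 overlaps AC009120.2 on the opposite strand (50.4%). Not given in the sources used here was the strand setting of the authors' counting, so the values of these 6 genes are uncertain. PSMC5 shares 27.2% of its transcript with FTSJ3 on the opposite strand. The 36 annotated proteasome pseudogenes took 0.0579% to 0.104% of the reads of genes and pseudogenes together.

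**Figure D1:**
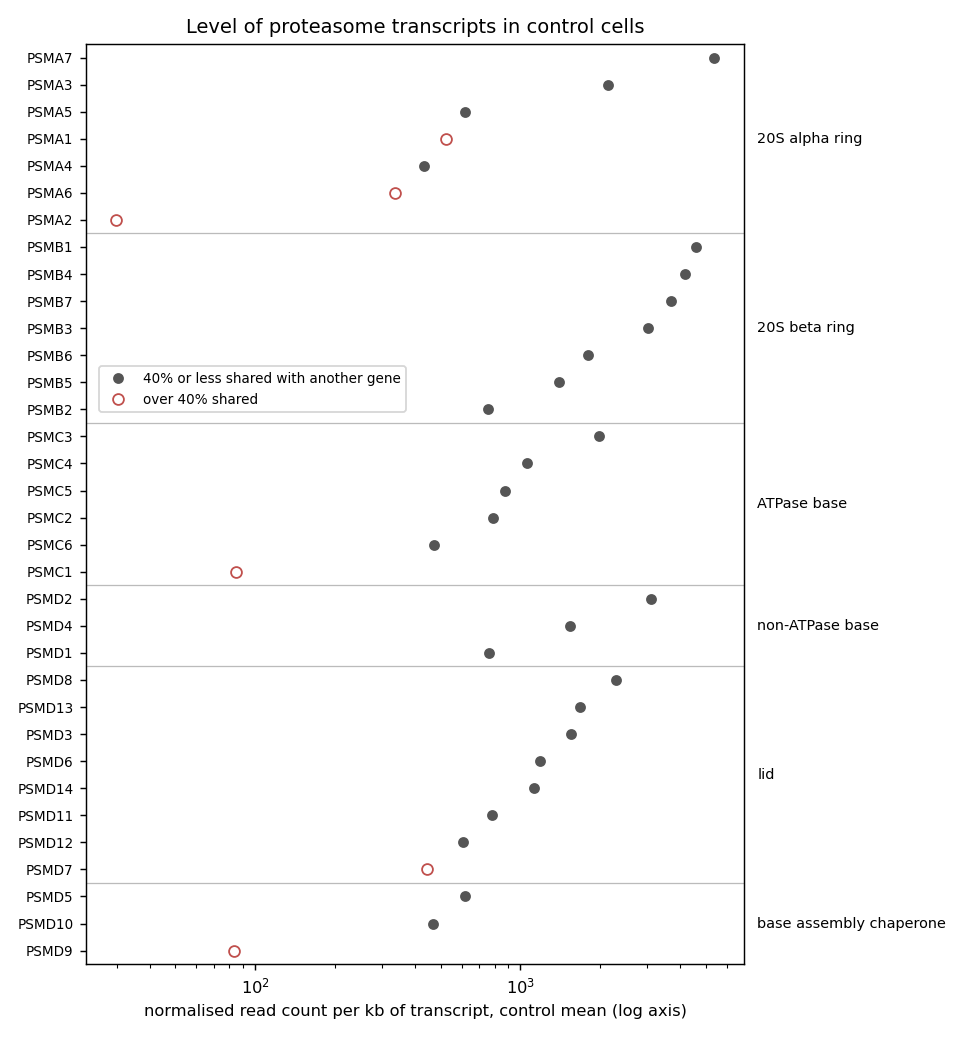
Mean normalised read count per kb of transcript in the 3 control libraries (log axis) for the 34 proteasome genes, by sub-complex. Filled points share 40% or less of the transcript with another gene, and open points share more; PSMA7 is highest at 5383 and the open points lie at or under 523.

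Proteasome genes took 0.429%, 0.464% and 0.451% of all reads in double KD libraries, 0.379%, 0.376% and 0.378% in SIRT1 KD, 0.413%, 0.388% and 0.409% in IGF2BP2 KD, and 0.390%, 0.408% and 0.400% in control libraries. On this scale the double KD libraries lay above and the SIRT1 KD libraries below every control library, while IGF2BP2 KD overlapped control. On the scale of size factors, used for all other results, both separations were absent: the summed normalised counts were 81348, 97031 and 91602 in double KD, 79095, 74333 and 77826 in SIRT1 KD, 83012, 76043 and 82417 in IGF2BP2 KD, and 78360, 82255 and 82165 in control libraries.

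Double KD cells had higher levels of PSMD2, PSMD4, PSMD14, PSMC5 and PSMB7 and lower levels of PSMA3 and PSMC6 than control cells. A gene was called where its limma p, adjusted by Benjamini-Hochberg over 17576 genes, was under 0.05. Of the 34 proteasome genes 5 were called higher (14.7%), against 16.7% of all genes tested, and 2 lower (5.88%), against 17.5%. The median log2 difference was 0.09, against 0.01 over all genes tested, and 27 of 34 differences were above 0. Those 5 and 2 genes, named above, are also the ones whose double KD and control libraries did not overlap; over all genes the shares were 20.9% higher and 21.3% lower. With double KD replicate 2 left out, limma called 6 higher (19.1% of all genes) and 4 lower (20%), and the median was 0.04. Leaving out double KD replicate 1 gave 12 higher and 0 lower (18.1% and 17.1% of all genes in that fit), and double KD replicate 3 gave 3 and 0 (14.1% and 16.5%). Leaving out control replicate 1 gave 2 and 1 (12.5% and 13.9%), control replicate 2 gave 3 and 0 (13.4% and 14.4%) and control replicate 3 gave 4 and 0 (12.8% and 13.5%). SIRT1 KD replicate 3 left out gave 5 and 1 (15.2% and 16.3%).

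SIRT1 KD cells had lower levels of 7 proteasome genes than control cells, and none was called higher. The 7 were PSMA1, PSMA3, PSMB2, PSMB6, PSMD1, PSMD7 and PSMD12, or 20.6% of the 34, against 15.7% of all genes tested. With limma 0 of 34 were called higher, against 12.9% of all genes; at an unadjusted p under 0.05 the count was also 0, and edgeR and DESeq2 gave 0. The median log2 difference was -0.09, against -0.00 over all genes, with 25 of 34 below 0. In 16 genes (47.1%) every SIRT1 KD library lay below every control library, and in 3 (PSMD2, PSMD4 and PSMD6) above; over all genes these shares were 26% lower and 25.0% higher. Leaving out double KD replicate 2, which enters here only through the shared estimate of the spread, 11 were called lower (20.4% of all genes), all 7 among them. Leaving out SIRT1 KD replicate 2 or 3, or control replicate 1 or 2, gave 4 (11.7% to 12.8% of all genes in those fits), and leaving out control replicate 3 gave 3 (11.7%).

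Between IGF2BP2 KD and control cells, PSMD11 was the one proteasome gene called: it was lower, 1 of 34 (2.94%), against 9.39% of all genes tested. With limma 0 of 34 were called higher, against 6.86% of all genes. At an unadjusted p under 0.05, 3 were higher, a threshold for which no share of all genes is given here. The count was 1 by edgeR and 2 by DESeq2. The median log2 difference was -0.02, between -0.31 for PSMD11 and 0.31 for PSMA2 (limma adjusted p = 0.33). The groups did not overlap in 5 genes that were higher (14.7%, against 19.8% of all genes) and 4 that were lower (11.8%, against 21.5%). With double KD replicate 2 left out the counts were 3 higher (12.6% of all genes) and 3 lower (15.2%). These first 3 comparisons share the control libraries, so their values are given side by side and not related to each other.

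Double KD cells had higher levels of 10 proteasome genes than SIRT1 KD cells (29.4%, against 11.9% of all genes tested), and none was called lower. The 10 were PSMA3, PSMB1, PSMB2, PSMC2, PSMC5, PSMD1, PSMD2, PSMD5, PSMD12 and PSMD14. With limma 0 were called lower, against 10.7% of all genes; the count was 0 at an unadjusted p under 0.05, and 0 by edgeR and DESeq2. The median log2 difference was 0.18, against 0.02 over all genes, and 28 of 34 were above 0. In 14 genes (41.2%) every double KD library lay above every SIRT1 KD library, against 18.0% of all genes; in 0 genes it lay below, against 15.2%. With double KD replicate 2 left out, 10 were again called higher (14.8% of all genes), 9 of them shared with the first 10, 0 were called lower (13.5% of all genes), and the median was 0.12. Without double KD replicate 1 the count was 19 (14.0% of all genes in that fit). This comparison shares the SIRT1 KD libraries with the one against control, so a gene low in SIRT1 KD enters both.

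Double KD cells had higher PSMC1, PSMD2 and PSMD14 than IGF2BP2 KD cells (3 of 34, 8.82%, against 16.4% of all genes tested) and lower PSMA3 (1 of 34, 2.94%, against 15.2%). The median log2 difference was 0.10, against 0.01 over all genes. The groups did not overlap in 4 genes that were higher (11.8%, against 19.5% of all genes) and 2 that were lower (5.88%, against 18.9%). Leaving out double KD replicate 2 gave 4 higher (18.4% of all genes; PSMD2 and PSMD14 among them and PSMC1 not) and 3 lower (17.2%), with a median of 0.02, and without double KD replicate 1 there were 11 higher (18.4%). The interaction asks whether the double KD minus SIRT1 KD difference exceeds the IGF2BP2 KD minus control difference. It was called positive for PSMD2 alone (1 of 34, 2.94%, against 1.7% of all genes) and negative for 0, against 1.16% of all genes. At an unadjusted p under 0.05 limma gave 12 positive and 1 negative. No share of all genes at that unadjusted threshold is given here, so these 2 counts cannot be set against a background. edgeR called 1 positive (1.88% of all genes) and DESeq2 3 (3.03%), and both called 0 negative. The median interaction was 0.22, against 0.02 over all genes, with 30 of 34 above 0. With double KD replicate 2 left out the median was 0.12, 6 were called positive (5.86% of all genes) and 0 negative (3.88%), and without replicate 1 also 6 were positive (3.83%).

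**Figure D2:**
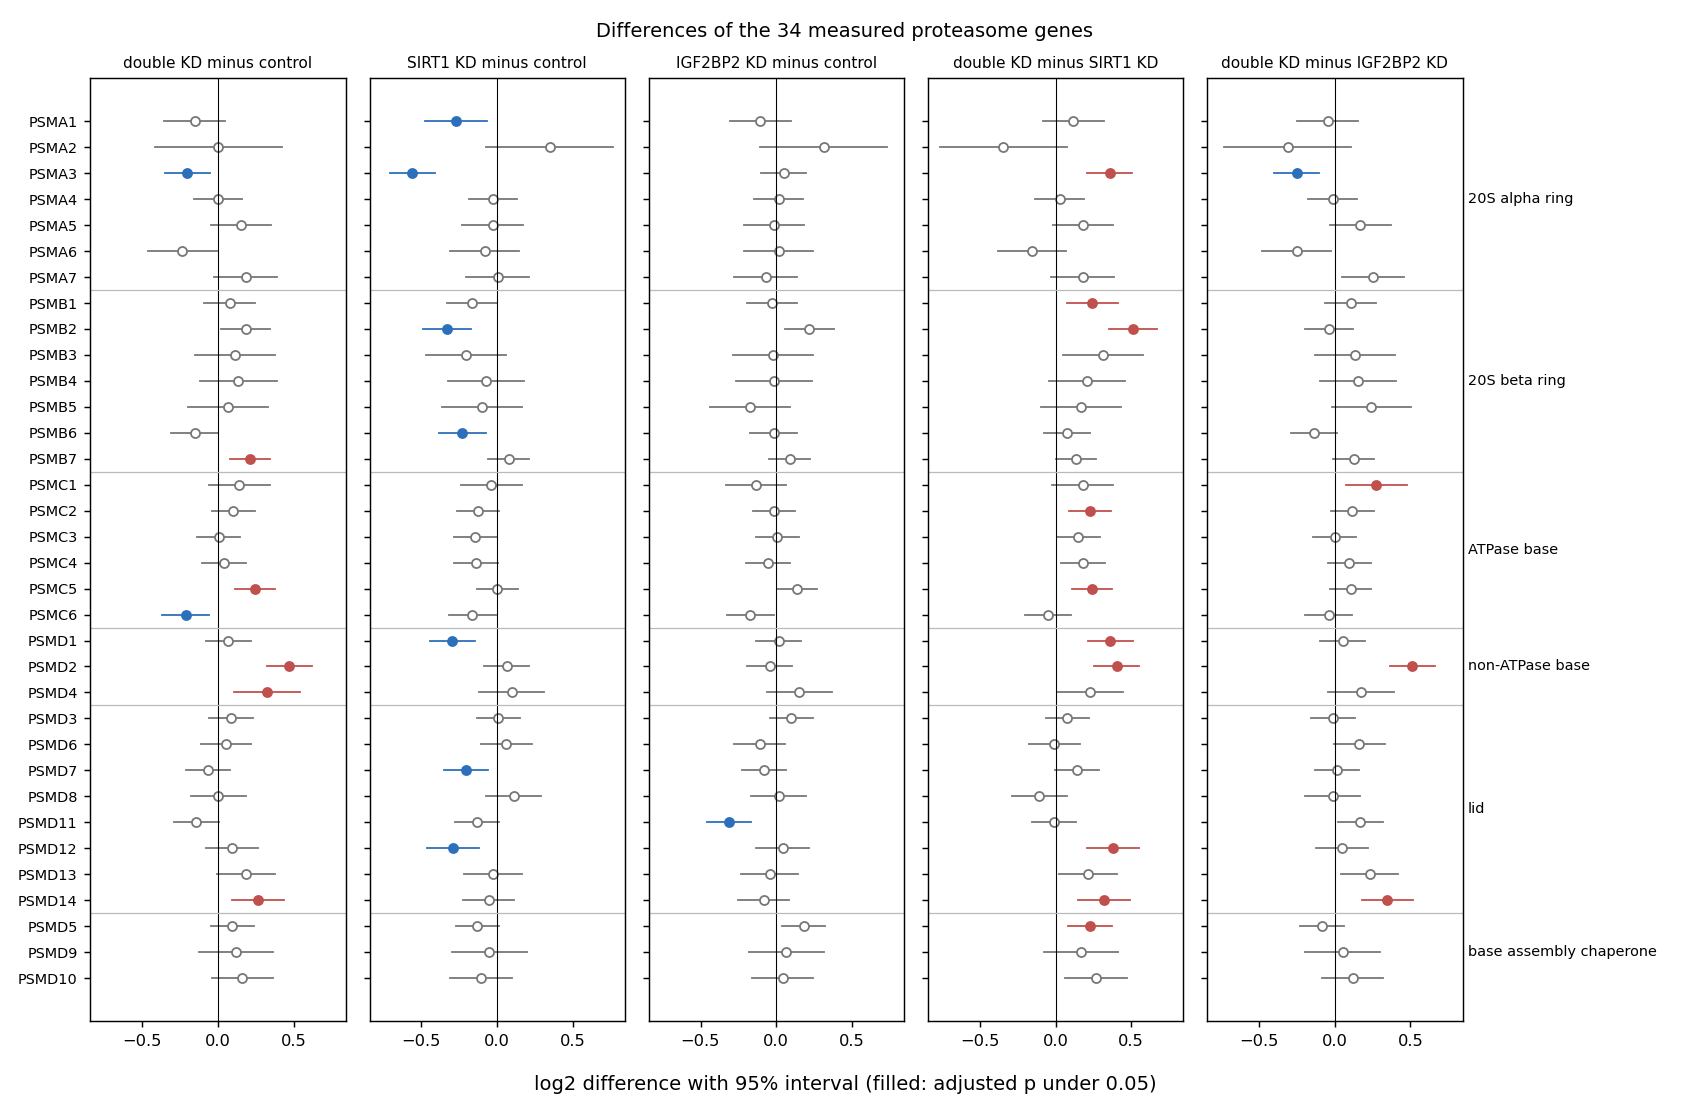
Log2 difference of each of the 34 proteasome genes in 5 comparisons, with its 95% interval from limma, grouped by sub-complex. Filled points passed an adjusted p under 0.05 (red higher, blue lower); PSMA3 at -0.56 is the lowest filled point in SIRT1 KD minus control, and PSMD2 is filled in each of the 3 double KD comparisons, at 0.47, 0.41 and 0.51.

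In the 20S alpha ring, whose 7 tested subunits form the outer gate of the core, PSMA3 (alpha7) was called in 4 comparisons. PSMA3 (ENSG00000100567.13, chr14:58244831-58272012, plus strand) had 1714, 1861 and 1825 normalised counts in double KD, 1393, 1416 and 1400 in SIRT1 KD, 2326, 1936 and 2184 in IGF2BP2 KD, and 2008, 2164 and 2040 in control libraries. The SIRT1 KD libraries were lowest and close together, the double KD libraries lay between them and the control libraries, and neither group overlapped the control. It stood at 67.8% of control in SIRT1 KD, a log2 difference of -0.56 ± 0.07 (SE; limma adjusted p = 8.5e-06), and at 86.9% of control in double KD, a log2 difference of -0.20 (adjusted p = 0.034). Double KD differed from SIRT1 KD by 0.36 (log2; adjusted p = 0.0012) and from IGF2BP2 KD by -0.25 (adjusted p = 0.011). The fall against control in double KD was lost in 9 of 21 alternatives, among them leaving out any 1 control library.

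PSMA1 (alpha6) had 563, 564 and 517 normalised counts in SIRT1 KD, against 625, 703 and 657 in control libraries. The groups did not overlap, and the log2 difference was -0.27 (limma adjusted p = 0.042), which passed in 12 of 21 alternatives and was lost, for example, without SIRT1 KD replicate 3 (adjusted p = 0.16). PSMA7 (alpha4) had 5128, 7404 and 5938 in double KD and 5193, 5587 and 5304 in control libraries, so that double KD replicate 2 was high and replicate 1 below all controls. PSMA5 (alpha5) did likewise, with 2167, 3096 and 2523 in double KD, against 2265, 2376 and 2291 in control libraries. Limma called neither in any comparison; edgeR and DESeq2 called PSMA7 higher in double KD against IGF2BP2 KD (adjusted p = 0.044 and 0.041, limma adjusted p = 0.059). PSMA4 (alpha3) was called in none by the 3 tools, and its log2 differences ran from -0.03 to 0.03 over the 5 comparisons of groups. PSMA2 (alpha2) and PSMA6 (alpha1), whose transcripts overlap other genes, were called in none either.

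The 20S beta ring holds the proteolytic sites, in PSMB5 (chymotrypsin-like), PSMB6 (caspase-like) and PSMB7 (trypsin-like). PSMB6 had 1362, 1257 and 1309 normalised counts in SIRT1 KD, against 1561, 1494 and 1548 in control libraries, with no overlap, a log2 difference of -0.23 (limma adjusted p = 0.025). In double KD it had 1234, 1519 and 1402, a log2 difference of -0.15 to control (adjusted p = 0.12), and -0.22 (adjusted p = 0.0042) without double KD replicate 2. PSMB7 had 3999, 4201 and 4450 in double KD, 3963, 3692 and 3859 in SIRT1 KD, and 3569, 3576 and 3766 in control libraries. Every double KD library lay above every control library, with a log2 difference of 0.21 (adjusted p = 0.015), while SIRT1 KD overlapped control at 0.08 (adjusted p = 0.41).

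PSMB5, the subunit that carries the main target site of bortezomib, had 1573, 2529 and 1706 normalised counts in double KD, 1737, 1596 and 1730 in SIRT1 KD, and 1755, 1799 and 1864 in control libraries. Double KD replicate 2 lay above and its partners below the controls, and every SIRT1 KD library lay below every control library. Neither difference was called in limma: 0.07 for double KD (95% interval -0.19 to 0.33, adjusted p = 0.72), which turned to -0.14 (adjusted p = 0.071) without replicate 2, and -0.10 for SIRT1 KD (-0.36 to 0.16, adjusted p = 0.61). With all 12 libraries, the 3 catalytic subunits thus gave 1 called lower in SIRT1 KD and 1 called higher in double KD, in different genes. Without double KD replicate 2, PSMB6 was called lower in double KD as well, as given above.

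Among the structural beta subunits, PSMB2 (beta4; ENSG00000126067.12, chr1:35599544-35641844, minus strand) differed most. It had 2030, 2542 and 2395 normalised counts in double KD, 1648, 1578 and 1637 in SIRT1 KD, 2419, 2235 and 2465 in IGF2BP2 KD, and 1985, 2065 and 2063 in control libraries. SIRT1 KD lay below every other library, and IGF2BP2 KD above every control. SIRT1 KD stood at 79.6% of control, a log2 difference of -0.33 ± 0.08 (SE; limma adjusted p = 0.0028), and double KD at 143% of SIRT1 KD, a log2 difference of 0.51 (adjusted p = 8.2e-05). IGF2BP2 KD against control gave 0.22 (limma adjusted p = 0.057), and edgeR and DESeq2 called it higher (adjusted p = 0.035 and 0.023).

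PSMB1 (beta6) had 3954, 5118 and 4560 in double KD, against 3799, 3763 and 3894 in SIRT1 KD libraries. The groups did not overlap, and the log2 difference was 0.24 (limma adjusted p = 0.035), which fell to 0.15 (adjusted p = 0.064) without double KD replicate 2. PSMB3 (beta3) had 2031, 3302 and 2419 in double KD, against 2246, 2289 and 2507 in control libraries, and PSMB4 (beta7) had 3550, 5735 and 4231, against 3825, 4225 and 4020. In both genes double KD replicate 2 was far above its partners and replicate 1 was below every control, and limma called neither; DESeq2 called PSMB3 higher in double KD against SIRT1 KD (adjusted p = 0.034, limma adjusted p = 0.082). The median difference of the 7 beta genes was -0.17 in SIRT1 KD, -0.02 in IGF2BP2 KD and 0.11 in double KD against control, and 0.21 in double KD against SIRT1 KD, with 7 of 7 above 0. Without double KD replicate 2 the last 2 medians were -0.05 and 0.12.

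The ATPase base is a ring of 6 AAA ATPases, PSMC1 to PSMC6. In SIRT1 KD cells 5 of the 6 differences from control were below 0, between -0.16 and 0.00 with a median of -0.13. With limma 0 of 6 were called lower, against 15.7% of all genes tested. At an unadjusted p under 0.05, 2 were lower (share of all genes at that threshold not given here), and edgeR and DESeq2 called 0. PSMC5 (Rpt6) had 1559, 1639 and 1708 normalised counts in double KD, 1399, 1361 and 1388 in SIRT1 KD, and 1335, 1416 and 1392 in control libraries. Double KD lay above all libraries of both groups, with a log2 difference of 0.24 to control (limma adjusted p = 0.0057) and 0.24 to SIRT1 KD (adjusted p = 0.010).

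PSMC6 (Rpt4) had 871, 944 and 857 normalised counts in double KD, against 992, 1090 and 1014 in control libraries. It was lower in every double KD library, with a log2 difference of -0.21 (limma adjusted p = 0.032), and lost the call in 7 of 21 alternatives, among them leaving out control replicate 2 (adjusted p = 0.15). PSMC2 (Rpt1) had 2413, 2624 and 2705 in double KD, against 2239, 2154 and 2211 in SIRT1 KD libraries, which did not overlap, a log2 difference of 0.23 (adjusted p = 0.020). PSMC1 (Rpt2) had 398, 458 and 396 in double KD, against 348, 320 and 365 in IGF2BP2 KD libraries, with no overlap and a log2 difference of 0.27 (adjusted p = 0.035), on a transcript that mostly overlaps NRDE2. Limma called PSMC3 (Rpt5) and PSMC4 (Rpt3) in no comparison; DESeq2 called PSMC4 higher in double KD against SIRT1 KD (adjusted p = 0.049, limma adjusted p = 0.071).

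The non-ATPase base holds PSMD1 (Rpn2) and PSMD2 (Rpn1), large scaffold proteins of which PSMD2 docks ubiquitin shuttles and a deubiquitinase, and PSMD4 (Rpn10), a receptor for ubiquitin chains. PSMD2 (ENSG00000175166.17, chr3:184298709-184309054, plus strand) had 13306, 16299 and 15227 normalised counts in double KD, 11536, 11067 and 11142 in SIRT1 KD, 10816, 9798 and 10754 in IGF2BP2 KD, and 10382, 11061 and 10820 in control libraries. Every double KD library lay above the other 9 libraries, and the SIRT1 KD libraries lay just above the controls. Double KD stood at 139% of control, a log2 difference of 0.47 ± 0.07 (SE; limma adjusted p = 4.3e-05), at 0.41 above SIRT1 KD (adjusted p = 4.0e-04) and at 0.51 above IGF2BP2 KD (adjusted p = 2.3e-05). These 3 calls passed in all 21 alternatives. SIRT1 KD alone differed from control by 0.07 (adjusted p = 0.55) and IGF2BP2 KD alone by -0.04 (adjusted p = 0.76).

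The interaction of PSMD2 was 0.45 (95% interval 0.24 to 0.66, limma adjusted p = 0.023): the double KD lay above the sum of the single differences. It missed the threshold in 8 of 20 alternatives, among them without any 1 SIRT1 KD library (adjusted p between 0.054 and 0.072), with its value between 0.40 and 0.47 in those 8.

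PSMD1 had 2573, 2627 and 2776 normalised counts in double KD, 2104, 1968 and 2133 in SIRT1 KD, and 2429, 2622 and 2560 in control libraries. The SIRT1 KD libraries lay below all others, at 81.5% of control, a log2 difference of -0.29 (limma adjusted p = 0.0039), and double KD exceeded SIRT1 KD by 0.36 (adjusted p = 0.0010) while overlapping control at 0.07 (adjusted p = 0.51). DESeq2 called the interaction of PSMD1 positive at 0.33 (adjusted p = 0.026, limma adjusted p = 0.069). PSMD4 had 2243, 3284 and 2299 in double KD, against 2004, 2057 and 2092 in control libraries. No library overlapped, but replicate 2 stood far above its partners: the log2 difference was 0.32 (adjusted p = 0.021) with it and 0.15 (adjusted p = 0.040) without it.

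The lid holds 8 genes, of which PSMD14 (Rpn11) encodes the metalloprotease that cuts ubiquitin chains from the substrate. PSMD14 (ENSG00000115233.12, chr2:161308038-161411717, plus strand) had 2379, 2835 and 2733 normalised counts in double KD, 2180, 2048 and 2121 in SIRT1 KD, 2267, 1838 and 2147 in IGF2BP2 KD, and 2134, 2286 and 2182 in control libraries. Every double KD library lay above the other 9. The log2 difference was 0.26 to control (limma adjusted p = 0.016), 0.32 to SIRT1 KD (adjusted p = 0.0078) and 0.35 to IGF2BP2 KD (adjusted p = 0.0029). SIRT1 KD overlapped control at -0.06 (95% interval -0.23 to 0.11, adjusted p = 0.66). DESeq2 called the interaction of PSMD14 positive at 0.39 (adjusted p = 0.025, limma adjusted p = 0.064).

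PSMD12 (Rpn5; ENSG00000197170.10, chr17:67337916-67366627, minus strand), whose promoter is shown above, had 2924, 2557 and 3068 normalised counts in double KD, 2152, 2139 and 2260 in SIRT1 KD, 2972, 2418 and 2880 in IGF2BP2 KD, and 2537, 2733 and 2739 in control libraries. SIRT1 KD lay below every other library, at 81.8% of control, a log2 difference of -0.29 (limma adjusted p = 0.012), and double KD exceeded SIRT1 KD by 0.38 (adjusted p = 0.0024). PSMD7 (Rpn8), the inactive partner of PSMD14, had 641, 634 and 652 in SIRT1 KD, against 734, 762 and 729 in control libraries. The groups did not overlap, and the log2 difference was -0.21 (adjusted p = 0.032), which was lost without any 1 SIRT1 KD or control library (adjusted p between 0.070 and 0.12).

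PSMD11 (Rpn6), a lid subunit that clamps the lid to the core, had 2763, 2362 and 2620 normalised counts in IGF2BP2 KD, against 3000, 3342 and 3256 in control libraries. Every IGF2BP2 KD library was lower, at 80.7% of control, a log2 difference of -0.31 (limma adjusted p = 0.0042) that passed in all 21 alternatives. Double KD had 2859, 2796 and 3046, a log2 difference of -0.14 to control (adjusted p = 0.13). The other 4 lid genes, PSMD3 (Rpn3), PSMD6 (Rpn7), PSMD8 (Rpn12) and PSMD13 (Rpn9), were called in no comparison by limma; edgeR and DESeq2 called PSMD13 higher in double KD against IGF2BP2 KD (adjusted p = 0.045 and 0.049, limma adjusted p = 0.060).

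**Figure D3:**
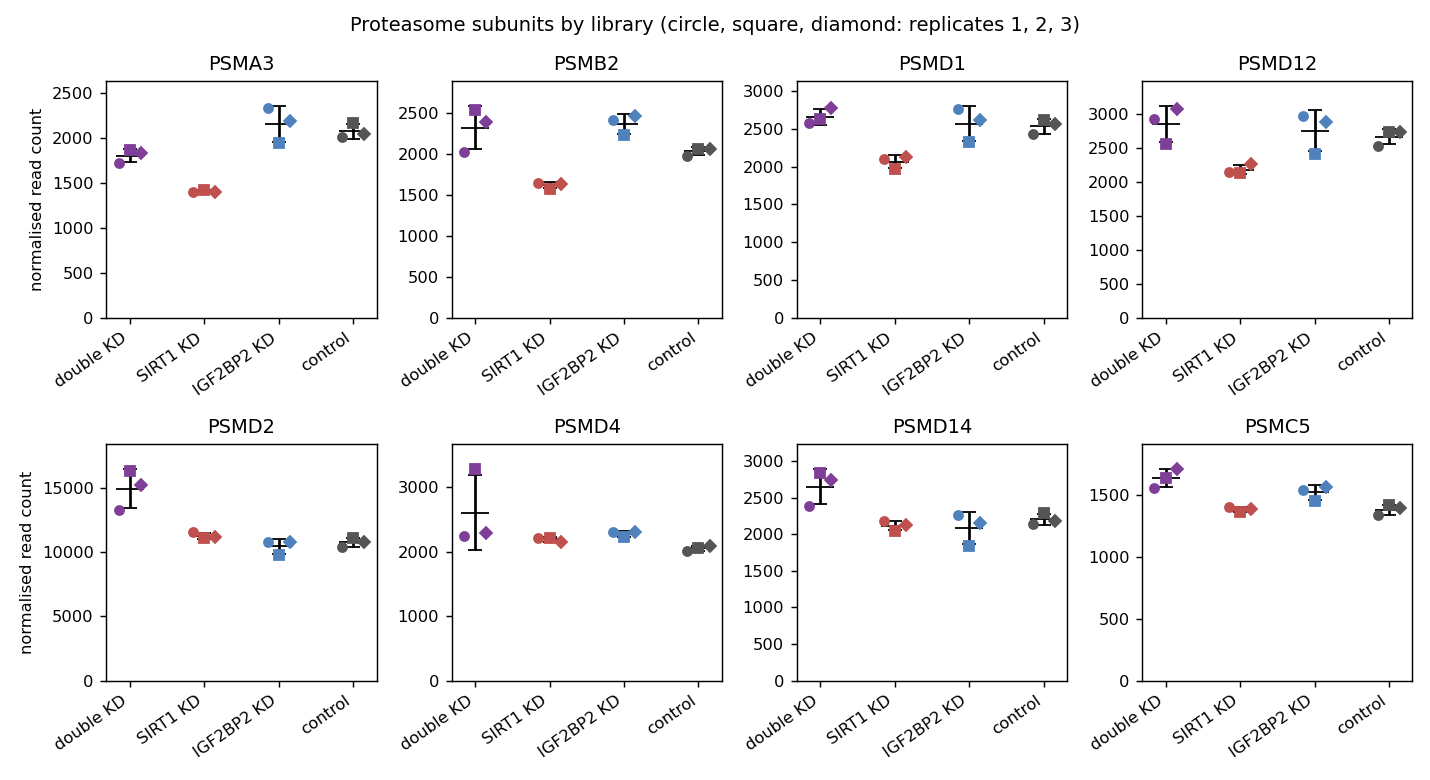
Normalised read counts of 8 proteasome genes in each library, from 0, by group, with the group mean and SD (n = 3). PSMA3, PSMB2, PSMD1 and PSMD12 are lowest in the SIRT1 KD libraries, PSMD2 and PSMD14 are higher in each double KD library than in the other 9, PSMC5 overlaps only IGF2BP2 KD, and PSMD4 is high mainly in double KD replicate 2.

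The 3 remaining PSMD genes encode chaperones that assemble the ATPase ring and leave the finished particle. PSMD5 had 2201, 2282 and 2363 normalised counts in double KD, against 2021, 1797 and 2043 in SIRT1 KD libraries. They did not overlap, and the log2 difference was 0.23 (limma adjusted p = 0.023), lost in 4 of 21 alternatives. DESeq2 also called PSMD5 higher in IGF2BP2 KD against control (adjusted p = 0.036, limma adjusted p = 0.083). Limma called PSMD9 and PSMD10 (gankyrin) in no comparison; DESeq2 called PSMD10 higher in double KD against SIRT1 KD (adjusted p = 0.040, limma adjusted p = 0.055).

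The sub-complexes are set side by side here. In SIRT1 KD against control, the median log2 difference was -0.09 in the 20S core (4 of 14 called lower), -0.13 in the ATPase base (0 of 6), 0.07 in the non-ATPase base (1 of 3 lower), -0.04 in the lid (2 of 8 lower) and -0.11 in the chaperones (0 of 3). In double KD against control, it was 0.07 in the core (1 of 14 higher, 1 lower), 0.07 in the ATPase base (1 of 6 higher, 1 lower), 0.32 in the non-ATPase base (2 of 3 higher; 0.15 without double KD replicate 2), 0.07 in the lid (1 of 8 higher; 0.11 without it) and 0.12 in the chaperones (0 of 3; 0.04 without it). In double KD against SIRT1 KD, it was 0.17 in the core (3 of 14 higher), 0.18 in the ATPase base (2 of 6), 0.36 in the non-ATPase base (2 of 3), 0.11 in the lid (2 of 8) and 0.23 in the chaperones (1 of 3; 0.15 without double KD replicate 2). Over all genes tested, 15.7% were called lower in SIRT1 KD against control. In double KD against control the shares were 16.7% higher and 17.5% lower, and against SIRT1 KD 11.9% higher. Each sub-complex holds few genes, and differences between sub-complexes were not tested.

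The core median depended on which double KD library was left out. Against control it was 0.07 with all libraries, -0.03 without double KD replicate 2 and 0.19 without replicate 1. Against SIRT1 KD it was 0.17, 0.06 and 0.30 in the same order. By library, the core median relative to the control mean was -0.14, 0.23 and 0.08 in double KD replicates 1, 2 and 3, against -0.06, -0.18 and -0.10 in SIRT1 KD replicates. The beta ring had medians of -0.18, 0.32 and 0.07 in the double KD replicates, against -0.17, -0.19 and -0.13 in SIRT1 KD. In the beta ring the double KD replicates lay on both sides of the control mean, while the SIRT1 KD replicates lay together.

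**Figure D4:**
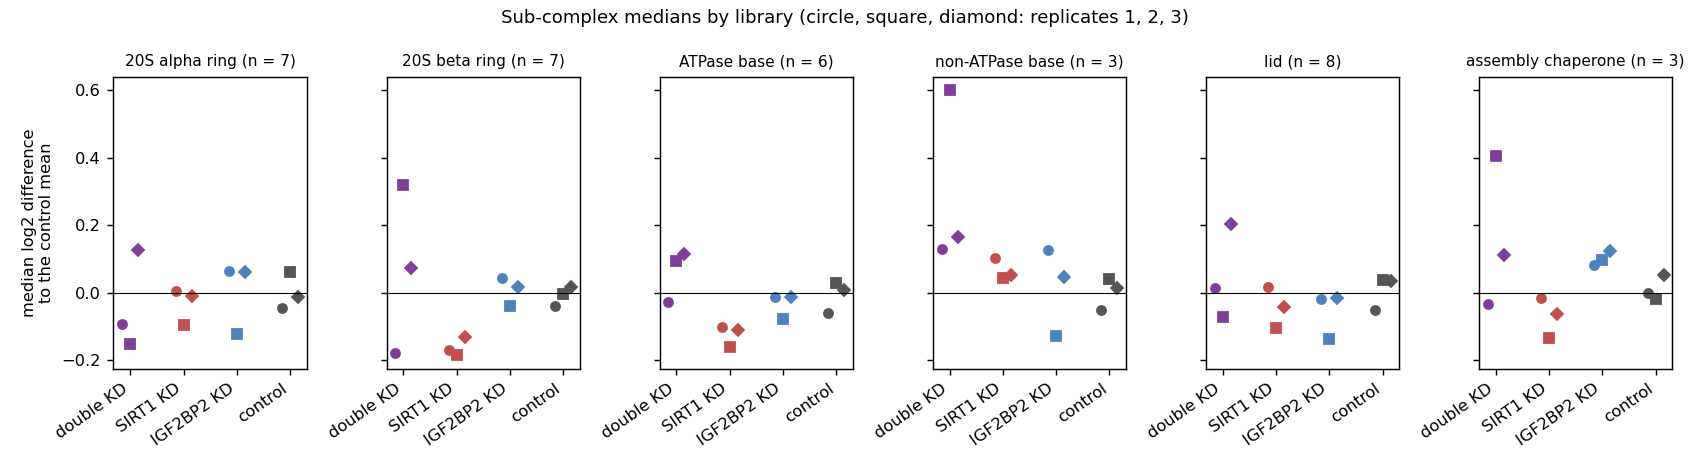
Median log2 difference to the control mean over the genes of each sub-complex, 1 point per library (circle, square and diamond for replicates 1, 2 and 3). In the beta ring the 3 SIRT1 KD points lie between -0.19 and -0.13, while the double KD points reach from -0.18 to 0.32.

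Double KD replicate 2 differed from its partners by sub-complex. Of the 34 genes 14 (41.2%) were highest of all 12 libraries in this one, against 21.0% of all genes tested. Its median log2 ratio to the mean of its partners was 0.27 in the beta ring (5 of 7 genes highest of 12 libraries), 0.07 in the alpha ring, 0.06 in the ATPase base, 0.19 in the non-ATPase base, 0.36 in the chaperones and -0.06 in the lid, where 2 of 8 were above 0. The extremes were PSMB5 at 0.63, PSMB3 at 0.57 and PSMB4 at 0.56 on one side, and PSMA2 at -0.63, PSMD8 at -0.35 and PSMD6 at -0.27 on the other. The same library had the lowest depth and the lowest mitochondrial share, and the part of these in its proteasome values was not tested.

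**Figure D5:**
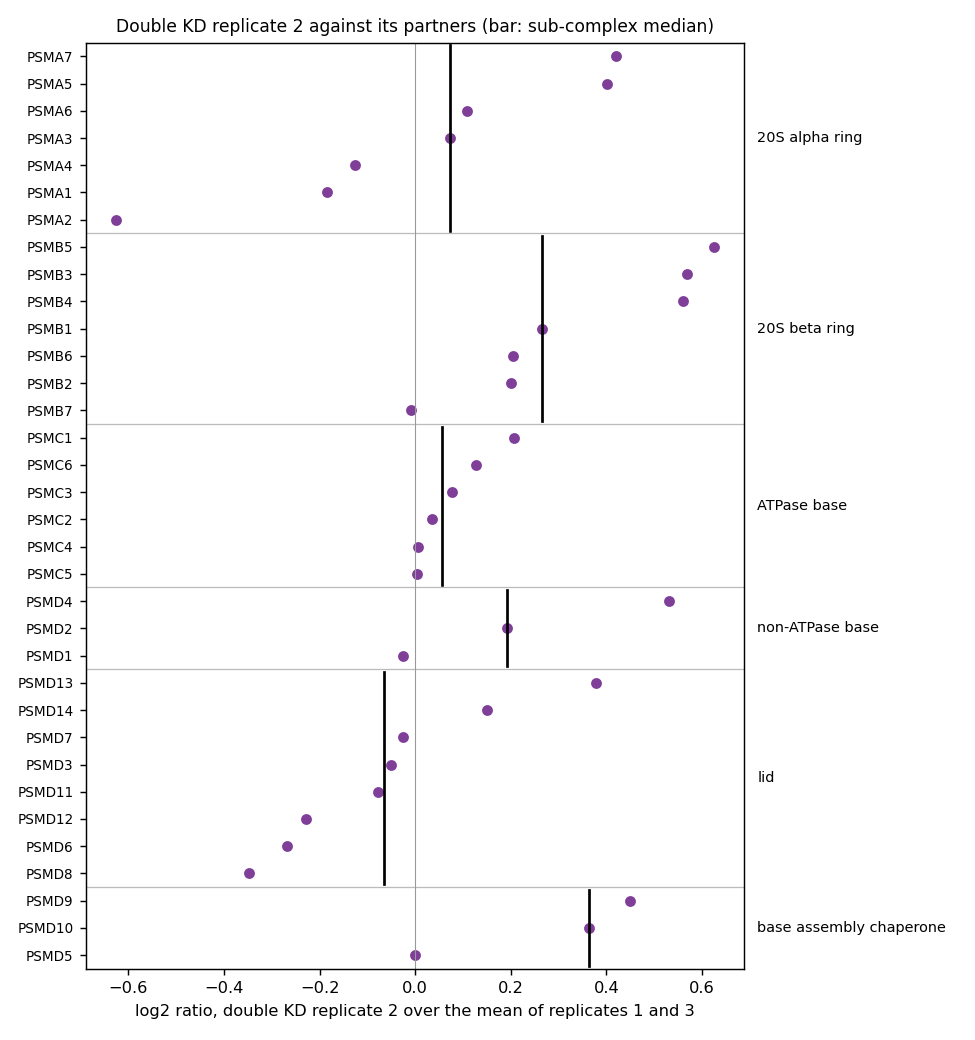
Log2 ratio of double KD replicate 2 over the mean of double KD replicates 1 and 3 for the 34 proteasome genes, by sub-complex, with bars at the sub-complex medians. The beta ring median is 0.27 and the lid median -0.06; PSMB5 (0.63) is highest and PSMA2 (-0.63) lowest. Both lie between the lower and upper quantiles of all genes tested that the text gives (-0.79 and 0.69).

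Other genes of the pathway came from a list of 41, all tested: activators, assembly factors, shuttles, ubiquitin genes and the transcription factors of proteasome genes. Double KD against control gave 11 called higher (26.8%, against 16.7% of all genes) and 7 lower (17.1%, against 17.5%). SIRT1 KD against control gave 6 higher (14.6%, against 12.9%) and 9 lower (22.0%, against 15.7%), and IGF2BP2 KD gave 1 higher (2.44%, against 6.86%) and 2 lower (4.88%, against 9.39%). Double KD against SIRT1 KD gave 6 higher (14.6%, against 11.9% of all genes) and 1 lower (2.44%, against 10.7%), and against IGF2BP2 KD 11 higher (26.8%, against 16.4%) and 6 lower (14.6%, against 15.2%).

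NFE2L1, the factor that drives proteasome genes, was lower in both groups with the SIRT1 shRNA. It had 3936, 4355 and 4153 normalised counts in double KD, 5266, 5052 and 5207 in SIRT1 KD, 5422, 6109 and 5711 in IGF2BP2 KD, and 6414, 6014 and 6398 in control libraries. Double KD lay below all other libraries, at 66.1% of control, a log2 difference of -0.60 (limma adjusted p = 7.4e-07), and SIRT1 KD at 82.5%, a log2 difference of -0.28 (adjusted p = 0.0026). IGF2BP2 KD gave -0.13 (adjusted p = 0.19). Its activating enzymes NGLY1 and DDI2 went the other way. NGLY1, which removes its glycans, had 1219, 1180 and 1325 in double KD, 1089, 1082 and 1123 in SIRT1 KD, and 736, 800 and 796 in control libraries, log2 differences of 0.67 (adjusted p = 6.8e-07) and 0.50 (adjusted p = 3.1e-05). Both groups lay above every control library. DDI2, the protease that cuts NFE2L1, was higher by 0.55 in double KD (adjusted p = 1.5e-05) and 0.44 in SIRT1 KD (adjusted p = 2.1e-04). VCP, listed with these processing genes, was lower instead. Without double KD replicate 2, VCP differed from control by -0.42 in double KD (limma adjusted p = 5.2e-08) and -0.35 in SIRT1 KD (adjusted p = 2.4e-07). In the fit to all 12 libraries VCP was also called lower in SIRT1 KD than in control cells. The values of NFE2L1, NGLY1 and DDI2 above come from that fit, so the p-values of VCP cannot be compared with theirs.

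NFE2L3, a related factor, had 1986, 2715 and 2176 normalised counts in double KD, 1968, 1727 and 1992 in SIRT1 KD, and 2950, 2849 and 3117 in control libraries. Both groups lay below control, by log2 differences of -0.39 (limma adjusted p = 0.0030; -0.51 without double KD replicate 2) in double KD and -0.65 (adjusted p = 3.0e-05) in SIRT1 KD. NFE2L2, the oxidative stress factor of the same family, gave -0.20 in double KD (adjusted p = 0.073), -0.21 in SIRT1 KD (adjusted p = 0.066) and 0.04 in IGF2BP2 KD (adjusted p = 0.82). POMP, which helps assemble the core, gave 0.15 (adjusted p = 0.11), 0.01 (adjusted p = 0.91) and -0.10 (adjusted p = 0.37) in the same order of groups.

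Genes of proteins that bind or activate the proteasome changed in both directions. ZFAND5, an activator of the 26S proteasome, had 2486, 2177 and 2592 normalised counts in double KD, 2719, 2621 and 2890 in SIRT1 KD, 3269, 3206 and 3425 in IGF2BP2 KD, and 3971, 3866 and 4156 in control libraries. All 3 knockdown groups lay below control, at log2 differences of -0.73 (limma adjusted p = 2.4e-07), -0.54 (adjusted p = 1.1e-05) and -0.28 (adjusted p = 0.011). UCHL5, a deubiquitinase of the base, had 683, 546 and 744 in double KD, 768, 741 and 787 in SIRT1 KD, 916, 837 and 820 in IGF2BP2 KD, and 1086, 1172 and 1146 in control libraries. It was also below control in every knockdown library, by -0.80 (adjusted p = 2.6e-06), -0.57 (adjusted p = 1.5e-04) and -0.40 (adjusted p = 0.0055).

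PSME4, an activator that caps the 20S core, was higher by 0.46 (log2) in double KD than in control cells (limma adjusted p = 3.7e-05) and by 0.36 in SIRT1 KD (adjusted p = 5.9e-04), and ECPAS, a proteasome adaptor, was higher by 0.29 in SIRT1 KD (adjusted p = 9.6e-04). PSME3, a nuclear activator of the core, had 4033, 4503 and 4538 in double KD, against 3321, 3597 and 3425 in control libraries, a log2 difference of 0.34 (adjusted p = 7.4e-04). IPO9, an importin that carries proteasomes into the nucleus, was higher by 0.22 in IGF2BP2 KD than in control cells (adjusted p = 0.014).

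The immunoproteasome subunits, which replace the catalytic beta subunits after interferon, are given by gene. PSMB9 had 698, 1167 and 783 normalised counts in double KD, 658, 589 and 602 in SIRT1 KD, 664, 693 and 744 in IGF2BP2 KD, and 579, 582 and 598 in control libraries. Every double KD library was above control, replicate 2 most, with a log2 difference of 0.55 (limma adjusted p = 0.0037) that was 0.33 (adjusted p = 3.2e-04) without replicate 2. PSMB8 had 1002, 1646 and 1126 in double KD, 1060, 961 and 1056 in SIRT1 KD, 1203, 1250 and 1316 in IGF2BP2 KD, and 1360, 1225 and 1372 in control libraries. SIRT1 KD lay below control at -0.36 (adjusted p = 0.047), while double KD, with replicate 2 above and its partners below every control, gave -0.10 (adjusted p = 0.60) and, without replicate 2, -0.31 (adjusted p = 2.6e-04). PSMB10 had 178, 217 and 170 in double KD, 161, 157 and 168 in SIRT1 KD, 204, 197 and 194 in IGF2BP2 KD, and 178, 166 and 202 in control libraries, and was called in no comparison by limma, edgeR or DESeq2.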

How the data were processed

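Per the labels, 1 µg of RNA from each of 12 libraries went into a New England Biolabs Ultra II library. Per the submitters' processing notes, the tools were STAR, CASAVA and DESeq2 and the build was GRCh38.p13; tool versions, annotation and strand setting were not given in the sources used here. In the table analysed, the authors deposited a signal per gene, gene counts divided by a size factor for each library. All values (100%) were whole multiples of 1 step per library, within 0.001 reads, so whole reads were recovered. A further table deposited by the authors, of log2 ratios per library, served only to check column codes: SIRT1 KD was read by elimination, and over 10664 genes the SD of the log2 difference was at most 0.00191 to the same library and at least 0.104 to any other. The 12 unnamed columns of a deposited table of raw counts were not used.

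Genes were kept with edgeR 4.0.16 filterByExpr (minimum count 10), which left 17576. limma 3.58.1 in R 4.3.3 was fitted to log2(normalised count + 1), which understates changes of low genes, with 1 mean per group, all 12 libraries, trend and robust settings, and Benjamini-Hochberg adjustment over all genes kept. Tested were 5 differences between groups and the interaction of both knockdowns. Members, lists and tests were chosen with earlier results of these data known. Named proteasome genes are, per comparison, up to 6 called higher and 6 called lower by adjusted p, with PSMB5, PSMB6, PSMB7 and PSMD14 against control whatever their p; in double KD against SIRT1 KD the other 4 called are also given. Of the pathway list, up to 8 by adjusted p per comparison with control are named, with the immunoproteasome genes, NFE2L1, NFE2L2 and POMP. One gene that this rule names and 1 sequence are not reported here. PSMA2, PSMA4 to PSMA7, PSMB3, PSMB4 and VCP were added after their values were seen. Symbols came from a gene name table by ID, gene positions, transcripts and UTRs from GENCODE 29, and promoters from RefSeq. The fit was tested on simulated data. Alternatives were edgeR on recovered reads with TMM, DESeq2 1.42.0, TMM scaling, pseudocounts of 0.5 and 5, no filter, only the 2 groups compared, no trend, a replicate block, and leaving out each library.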

Additional observations from a re-analysis of the deposited data

Results flagged for a closer look

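Genes of the proteasome and its pathway whose double KD minus SIRT1 KD difference departed from their IGF2BP2 KD minus control difference, by the limma interaction over 17576 genes, were PSMD2 with an interaction of 0.45 on the log2 scale (adjusted p = 0.023), PSMG3 with 0.58 (adjusted p = 0.044), PSMG4 with 0.42 (adjusted p = 0.050), PSME3 with 0.39 (adjusted p = 0.036) and NFE2L3 with 0.51 (adjusted p = 0.043). PSMG3 and PSMG4 encode chaperones of 20S assembly. PSMG3 had 485, 682 and 496 normalised counts in double KD, 418, 408 and 415 in SIRT1 KD, 408, 406 and 385 in IGF2BP2 KD, and 458, 432 and 465 in control libraries, so both single knockdowns lay below the controls and the double KD above them. PSMG4 had 679, 797 and 696 in double KD, 642, 645 and 587 in SIRT1 KD, 499, 540 and 520 in IGF2BP2 KD, and 593, 617 and 596 in control libraries, with IGF2BP2 KD lowest and double KD highest. In both genes double KD replicate 2 was the highest library. Without it the interactions were 0.42 for PSMG3 (limma adjusted p = 0.0074), 0.35 for PSMG4 (adjusted p = 0.017), 0.37 for PSME3 (adjusted p = 0.0027) and 0.38 for NFE2L3 (adjusted p = 0.0021), while the difference of PSMG3 between double KD and control fell to 0.12 (adjusted p = 0.26), against 0.28 (adjusted p = 0.049) with it. Of the 41 pathway genes 4 were called positive (9.76%, against 1.7% of all genes) and 0 negative by limma, with 1 negative at an unadjusted p under 0.05 and 0 by edgeR and by DESeq2.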

How the results depend on the processing

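No called difference of a named proteasome gene changed sign; PSMB5 in double KD against control, which was not called, gave -0.14 without double KD replicate 2 and 0.07 with it. Of 734 values under an alternative, 646 kept their side of the threshold, 87 lost it and 1 gained it (PSMB6, given above). These values cover genes called in the main fit, with PSMB5, PSMB6, PSMB7 and PSMD14 in SIRT1 KD and double KD against control. Most of them could lose a call but not gain one, and new calls of other genes are not among them. Of the counts of genes called, 196 stayed within 1.5 times the main count and 54 did not; of the sub-complex medians 493 moved by less than the spread and 7 by more. The causes were not tested. With only the 2 groups compared, SIRT1 KD against control gave 1 higher and 15 lower (22.8% and 23.9% of all genes). IGF2BP2 KD against control gave 3 and 3 (14.0% and 16.4%), and double KD against control 3 and 0 (12.5% and 14.2%). Double KD against SIRT1 KD gave 6 higher (6.69%), and double KD against IGF2BP2 KD 0 lower (10.8%). With no filter, SIRT1 KD against control gave 4 lower (5.3% of all genes), double KD against control 0 lower (6.24%) and the interaction 2 positive (0.476%). With no trend, double KD against control gave 3 higher and 0 lower (15.1% and 16.1%) and the interaction 0 positive (0.421%). For IGF2BP2 KD against control, edgeR gave 1 higher (8.07% of all genes), DESeq2 2 (8.27%) and TMM scaling 1 (7.37%). For double KD against IGF2BP2 KD, edgeR and DESeq2 gave 5 higher each (16.7% and 16.4%). DESeq2 gave 3 positive interactions (3.03%).

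Leaving out 1 library at a time gave 3 to 11 lower in SIRT1 KD against control, 0 to 3 higher and 1 to 3 lower in IGF2BP2 KD against control, 2 to 12 higher and 0 to 4 lower in double KD against control, 7 to 19 higher in double KD against SIRT1 KD, 2 to 11 higher and 0 to 3 lower in double KD against IGF2BP2 KD, and 0 to 6 positive interactions. Over the same fits the share of all genes called moved too. It ran from 11.7% to 20.4% lower in SIRT1 KD against control. For IGF2BP2 KD against control it was 3.91% to 12.6% higher and 6.01% to 15.2% lower. Double KD against control gave 12.5% to 19.1% higher and 13.5% to 20% lower. Double KD against SIRT1 KD gave 7.59% to 14.8% higher. Double KD against IGF2BP2 KD gave 12.8% to 18.4% higher and 11.5% to 17.2% lower. The interaction gave 0.343% to 5.86% positive. The median of the 20S core ran from -0.032 to 0.188 in double KD against control, 0.058 to 0.302 against SIRT1 KD and 0.085 to 0.332 in the interaction; that of the non-ATPase base ran from 0.15 (without double KD replicate 2) to 0.42 (without replicate 1) in double KD against control, and that of the ATPase base from 0.16 to 0.25 in the interaction. Equal replicate numbers showed no sign of marking pairs: over 18 pairs the correlation of deviations ran from -0.19 to 0.10, none over 0.1. Pairs of unlike number ran from -0.16 to 0.23. With 3 libraries per group this cannot exclude a shared batch. With a replicate block, 7 genes were called lower in SIRT1 KD against control (15.9% of all genes). Called higher were 5 in double KD against control (16.8%) and 10 in double KD against SIRT1 KD (12.2%). These counts of proteasome genes were the same without the block. Depth was lowest in double KD replicate 2.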
